A study of Homo sapiens with 10 samples.

Results

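Axon guidance ligands and receptors were compared between doxycycline-treated and vehicle-treated melanoma xenografts. The genes were taken by symbol: those of the EPHA and EPHB receptors, the EFNA and EFNB ephrins, the numbered semaphorins (SEMA) and the plexins (PLXNA to PLXND). NRP1, NRP2, ROBO1 to ROBO4, SLIT1 to SLIT3, NTN1, NTN4, DCC, UNC5A, UNC5B and UNC5C completed the set. The array table held 64 such genes among 17492, each with 1 probe set (the group of probes summarised into 1 value). The choice was made by symbol, but earlier results of these data were known when it was made. EPHB2 and SEMA3B were not analysed here.

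The tumours were A375, an established human skin melanoma cell line, grown under the skin of BALB/c nude mice. Both groups carried the same cells, in which doxycycline switches on Omomyc, a dominant-negative fragment of MYC, and mice drank doxycycline or its vehicle once tumours had reached 100 mm3. Tumours were excised after 7 days, with 5 vehicle and 5 doxycycline tumours on 1 array each, named as biological replicas. The age and sex of the mice, and whether the line was 1 clone, were not given in the sources used here. No group received doxycycline without carrying Omomyc, so effects of Omomyc and of doxycycline cannot be told apart. Nude mice lack most T cells but keep vessels, fibroblasts, nerves and macrophages of mouse origin, whose RNA was extracted with the tumour and may bind human probes.

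Axon guidance molecules were named for steering growing nerve fibres, and tumour and vessel cells use them to attract, repel and sort cells. Ephrins sit on one cell and bind Eph receptor tyrosine kinases on the next, so that both cells receive a signal. Semaphorins act through plexins, with neuropilins as co-receptors of the secreted ones. SLIT proteins bind ROBO receptors, and netrins bind DCC and UNC5 receptors. Melanocytes come from the neural crest, a migratory cell population guided by these same molecules.

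MYC, from which Omomyc derives, stood at 6.13 to 6.58 in the vehicle arrays and 7.24 to 7.96 in the doxycycline arrays on the log2 scale, with no overlap. Whether its probes also detect the Omomyc transcript was not tested. Of 13 lineage markers, SOX10, PRAME and CSPG4 lay above the median of all genes in every array, those medians being 5.46 to 5.56. PMEL, MLANA, TYR, TYRP1, GPR143 and SLC45A2, genes of pigment making, lay below it in every array. Mean correlation with the other arrays of the group was 0.982 to 0.985 for vehicle and 0.967 to 0.977 for doxycycline. Doxycycline arrays 5 and 4 were the lowest, at 0.967 and 0.973.

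The promoter windows of 5 genes are shown because the receptors PLXNA1 and PLXND1 fell, the neighbouring ephrin genes EFNA3 and EFNA1 moved in opposite directions, and NTN4 had the largest rise. Each window is RefSeq sequence from 250 bases before to 50 bases after a transcription start, 5′ to 3′. Capitals mark CACGTG, the E-box bound by MYC and MAX, its variant CACGCG, and the hypoxia-response cores ACGTG and GCGTG, on either strand. A CACGTG always holds ACGTG, and a CACGCG read on the other strand holds GCGTG. NTN4 has 2 windows in the table, of which the first is shown.
PLXNA1 (GRCh38.p14, chr3:126982865-126983164, plus strand): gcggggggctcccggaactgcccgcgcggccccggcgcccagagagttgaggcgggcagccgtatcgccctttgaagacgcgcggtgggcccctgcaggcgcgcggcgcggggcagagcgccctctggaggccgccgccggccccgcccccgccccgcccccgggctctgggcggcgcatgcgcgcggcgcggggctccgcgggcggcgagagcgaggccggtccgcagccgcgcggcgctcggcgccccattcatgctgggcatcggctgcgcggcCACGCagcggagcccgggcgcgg
PLXND1 (GRCh38.p14, chr3:129606627-129606926, minus strand): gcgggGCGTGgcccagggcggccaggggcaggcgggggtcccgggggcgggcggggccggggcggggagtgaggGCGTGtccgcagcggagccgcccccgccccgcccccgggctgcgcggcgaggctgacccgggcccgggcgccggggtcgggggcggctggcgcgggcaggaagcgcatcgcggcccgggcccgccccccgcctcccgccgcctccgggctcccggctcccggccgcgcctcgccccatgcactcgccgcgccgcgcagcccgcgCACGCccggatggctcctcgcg
EFNA3 (GRCh38.p14, chr1:155078587-155078886, plus strand): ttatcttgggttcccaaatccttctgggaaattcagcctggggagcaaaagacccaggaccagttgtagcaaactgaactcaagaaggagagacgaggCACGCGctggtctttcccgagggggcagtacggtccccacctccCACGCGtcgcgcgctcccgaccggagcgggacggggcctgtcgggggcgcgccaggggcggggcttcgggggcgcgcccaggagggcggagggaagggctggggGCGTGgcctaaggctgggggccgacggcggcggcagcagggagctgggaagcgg
EFNA1 (GRCh38.p14, chr1:155127626-155127925, plus strand): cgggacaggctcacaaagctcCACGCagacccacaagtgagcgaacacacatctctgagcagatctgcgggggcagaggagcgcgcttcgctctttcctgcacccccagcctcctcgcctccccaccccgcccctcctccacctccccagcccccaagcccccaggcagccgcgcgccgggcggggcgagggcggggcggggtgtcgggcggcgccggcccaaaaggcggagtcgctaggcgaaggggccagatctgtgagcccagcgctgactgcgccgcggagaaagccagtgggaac
NTN4 (GRCh38.p14, chr12:95791106-95791405, minus strand): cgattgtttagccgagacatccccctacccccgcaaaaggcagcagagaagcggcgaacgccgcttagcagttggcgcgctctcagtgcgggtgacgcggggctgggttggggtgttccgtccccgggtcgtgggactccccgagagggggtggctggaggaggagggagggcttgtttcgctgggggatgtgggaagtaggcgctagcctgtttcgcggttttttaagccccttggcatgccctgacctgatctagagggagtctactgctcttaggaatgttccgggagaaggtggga

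RefSeq windows were found for 56 of the 64 genes, 83 windows in all. CACGTG was in 4 of the 83 windows (4.82%), against 7.26% of all 35116 windows. Those windows belonged to EPHA8, SEMA3E, SEMA4D and SEMA6D, none of which passed the test of expression. CACGCG was in 12.0% of the windows of the set and 11.4% of all. ACGTG or GCGTG was in 49.4% and 48.4%. Of the 5 windows shown, those of EFNA3 and PLXND1 held a hypoxia core 3 times, and those of PLXNA1 and EFNA1 held 1 each. The window of EFNA3 held CACGCG 2 times, which also count as hypoxia cores. That of NTN4 held none of these letters. A match describes the letters in a window and shows no binding.

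Expression of 13 of the 64 genes passed the test, 20.3%, where 11.0% of all 17492 genes did (limma, Benjamini-Hochberg over all genes, threshold 0.05). NTN4, ROBO4, SEMA6B, EFNA1 and EPHA2 were higher in the doxycycline tumours, 5 of 64 or 7.81% against 5.03% of all genes. PLXND1, EFNA5, PLXNA1, EPHA3, EPHA5, EFNA3, SEMA5A and EFNB1 were lower, 8 of 64 or 12.5% against 5.95%. The median change was 0.03 over the set and 0.02 over all genes. Ligands and receptors took part about equally, with 7 of 32 ligands and 6 of 32 receptors called. Changes are doxycycline minus vehicle in log2 units, in which 1 unit is a doubling. Each p-value weighs the difference between the groups against the spread between tumours within them.

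The count depended on the variance model and on single arrays. A per-gene test that lets the groups differ in spread, without moderation, called EFNB1, NTN4 and PLXNA1 alone, 4.69% of the set against 7.34% of all genes. Leaving out 1 array at a time gave 7 to 13 called genes, 10.9% to 20.3% of the set, while 7.86% to 11.0% of all genes were called. It gave 2 higher in place of 5 without vehicle array 3 or doxycycline array 4, and 3 without vehicle array 4. It gave 4 lower in place of 8 without vehicle array 1, and 5 without vehicle array 2, 3, 4 or 5. With both doxycycline arrays 4 and 5 removed, an alternative added once the values were known, 6 were higher and 7 lower. That was 20.3% of the set against 10.1% of all genes, but the genes were not the same. EFNA1, EPHA2, ROBO4, SEMA6B, EFNA3 and SEMA5A no longer passed, while EPHA4, SEMA3C, NRP1, NRP2, PLXNC1 and EPHA7 did. The arrays were removed for low values in genes such as these, so the new passes follow in part from that choice.

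**Figure D1:**
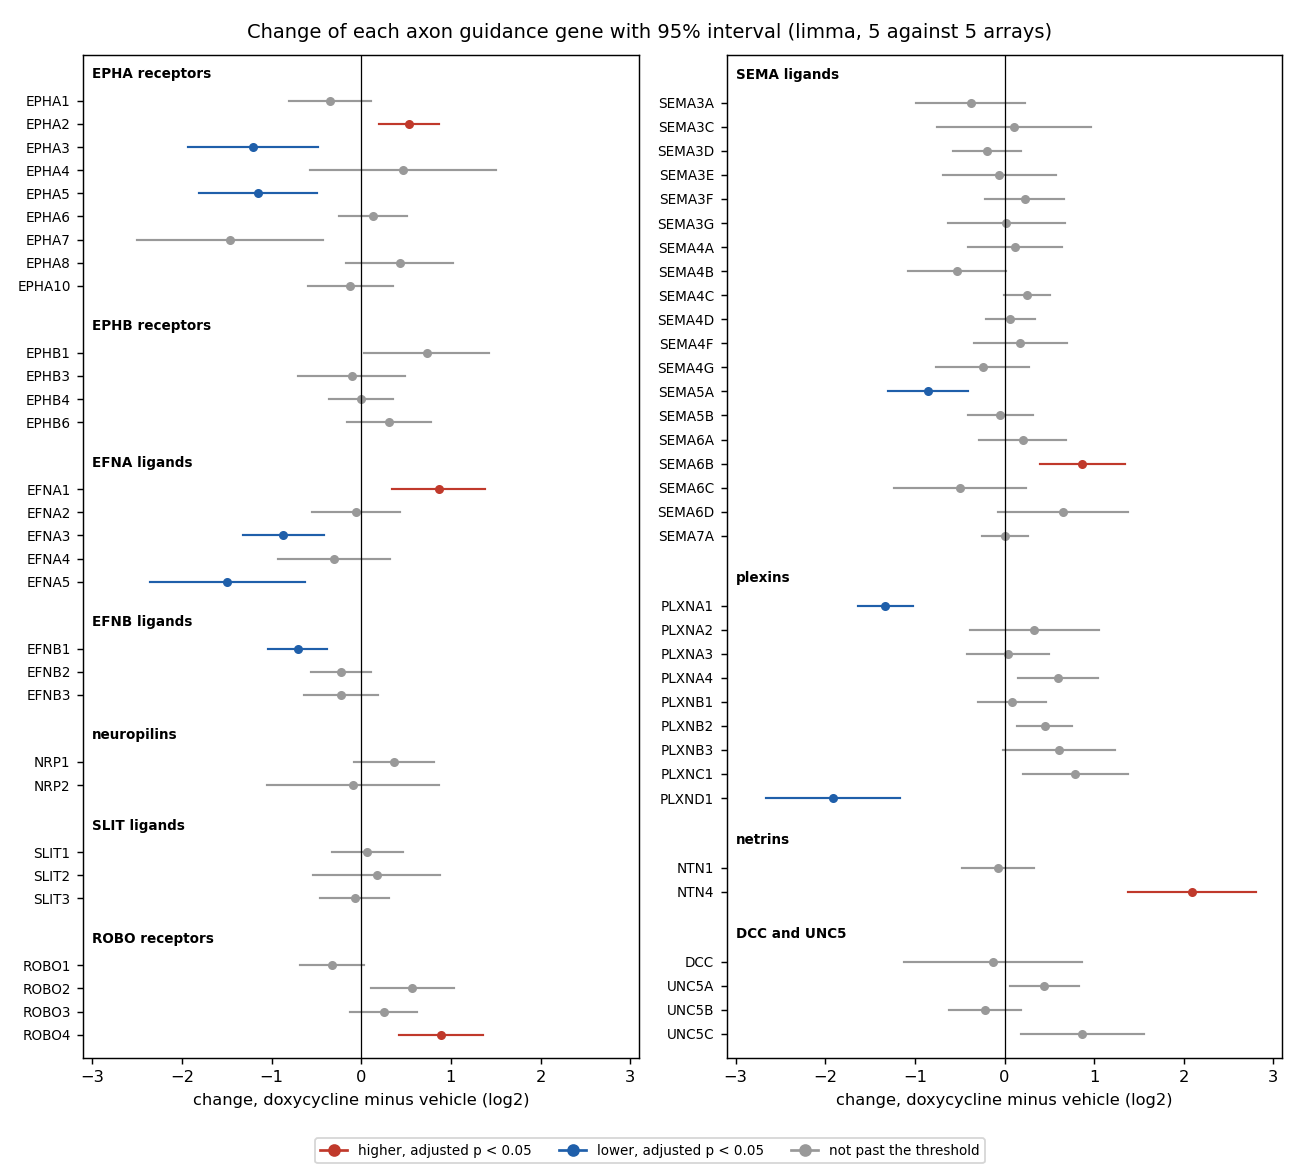
Change of each of the 64 genes, doxycycline minus vehicle, on a log2 axis, with points for the estimate and lines for the 95% interval of limma (5 arrays per group). Red and blue mark the 5 genes higher and the 8 lower at an adjusted p under 0.05. PLXND1 at -1.92 and NTN4 at 2.09 lie farthest from 0.

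Plexins, the receptors of semaphorins, held the most certain fall of the set. PLXNA1, which pairs with neuropilins to receive secreted semaphorins, stood at 7.45, 6.85, 7.39, 7.42 and 7.30 in vehicle arrays 1 to 5. In doxycycline arrays 1 to 5 it stood at 5.86, 5.83, 5.93, 6.15 and 6.00. Every doxycycline tumour was below every vehicle tumour, and the fall was close to even across them. PLXNA1 fell by 1.33 (95% CI -1.63 to -1.03, limma, adjusted p = 0.000132), a 2.51-fold fall. Its mean went from 7.28 ± 0.25 to 5.95 ± 0.13 (SD, n = 5 each). It passed in all 23 alternative settings (adjusted p = 1.1e-05 to 0.00633).

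PLXND1, the receptor of SEMA3E and a gene of developing vessels, had the largest fall. Its levels were 6.81, 6.60, 6.30, 6.67 and 6.45 in the vehicle tumours and 5.02, 5.69, 5.01, 3.40 and 4.15 in the doxycycline tumours. The groups did not overlap, but arrays 4 and 5 were well below the other doxycycline arrays. PLXND1 fell by 1.92 (95% CI -2.66 to -1.17, limma, adjusted p = 0.00392), a 3.77-fold fall. The group means went from 6.57 ± 0.20 to 4.65 ± 0.89 (SD, n = 5 each). It passed in 22 of 23 settings (adjusted p = 0.000634 to 0.0738), missing with the test of unequal spread. Its ligand SEMA3E differed by -0.06 (adjusted p = 0.934).

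The other 7 plexins did not pass. PLXNB2, a receptor of SEMA4C, stood at 7.09, 6.70, 7.14, 6.71 and 7.28 in vehicle and 7.31, 7.30, 7.55, 7.44 and 7.56 in doxycycline tumours. These groups did not overlap, yet the difference of 0.45 missed the threshold (95% CI 0.14 to 0.76, limma, adjusted p = 0.0639). It passed in 3 of 23 settings (adjusted p = 0.0345 to 0.165), among them without vehicle array 5.

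PLXNC1, the receptor of SEMA7A, read 5.15, 4.99, 4.86, 5.22 and 5.52 in vehicle and 5.90, 6.38, 6.16, 6.43 and 4.83 in doxycycline tumours. Arrays 1 to 4 of the doxycycline group were above all vehicle arrays, and array 5 was below them all. Over all arrays the difference was 0.79 (95% CI 0.20 to 1.38, limma, adjusted p = 0.086). Without doxycycline array 5 it was 1.07 (adjusted p = 0.00195; 0.00195 to 0.225 over 23 settings). SEMA7A itself differed by less than its spread, at 8.39 ± 0.09 to 8.40 ± 0.18 (SD, n = 5 each). PLXNA2, PLXNA3, PLXNA4, PLXNB1 and PLXNB3 differed by 0.33, 0.04, 0.60, 0.08 and 0.61. The sign of PLXNA2, PLXNA3 and PLXNB1 turned in some settings, where they fell to -0.19, -0.11 and -0.15. PLXNA4 passed without doxycycline array 3 (adjusted p = 0.045; 0.045 to 0.202 over 22 settings). The PLXNA4 probe set is among the dimmest 30% of all genes, where values lie near the array's background. PLXNB3 passed with the stroma score or the replicate number in the fit (adjusted p = 0.0253 to 0.394 over 23 settings).

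Of 19 semaphorins, 1 rose and 1 fell, 10.5% called against 11.0% of all genes. SEMA6B, a membrane-spanning semaphorin that binds A-type plexins, stood at 5.73, 5.03, 4.75, 5.33 and 5.48 in vehicle tumours. In doxycycline tumours it stood at 6.00, 5.69, 5.93, 6.59 and 6.45. Only doxycycline array 2 fell within the vehicle range. SEMA6B rose by 0.87 (95% CI 0.40 to 1.34, limma, adjusted p = 0.0224), and passed in 18 of 23 settings (adjusted p = 0.012 to 0.102). It missed without vehicle array 2 or 3 or doxycycline array 4 (adjusted p up to 0.0558).

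SEMA5A, a membrane-spanning semaphorin with thrombospondin-type repeats, was lower. It stood at 4.05, 3.15, 3.45, 3.82 and 3.31 in vehicle and 2.42, 3.18, 2.61, 2.91 and 2.40 in doxycycline tumours. Doxycycline array 2 was above the lowest vehicle array, and the other 4 were below it. SEMA5A fell by 0.85 (95% CI -1.30 to -0.41, limma, adjusted p = 0.019), passing in 19 of 22 settings (adjusted p = 0.0118 to 0.0611). The call was lost without vehicle array 4 (adjusted p = 0.0507). Its probe set is among the dimmest 30% of all genes, where values lie near the array's background.

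The secreted semaphorins SEMA3A, SEMA3C, SEMA3D, SEMA3E, SEMA3F and SEMA3G gave 0 calls in 6 (limma; 0 had an unadjusted p under 0.05). Among all 17492 genes, 11.0% were called and 4307 had an unadjusted p under 0.05 (limma). Their changes ran from -0.38 for SEMA3A to 0.23 for SEMA3F. SEMA4A, SEMA4B, SEMA4C, SEMA4D, SEMA4F and SEMA4G likewise gave 0 calls (0 with an unadjusted p under 0.05), with changes from -0.53 for SEMA4B to 0.25 for SEMA4C. SEMA4D, the ligand of PLXNB1, differed by 0.07 (95% CI -0.21 to 0.34). SEMA5B, SEMA6A, SEMA6C, SEMA6D and SEMA7A differed by -0.05, 0.20, -0.50, 0.65 and 0.0046. SEMA6C had the widest interval of these 5, -1.24 to 0.24. SEMA7A, with no called gene in its class, read 8.42, 8.52, 8.27, 8.39 and 8.37 in vehicle and 8.60, 8.34, 8.33, 8.56 and 8.15 in doxycycline tumours, with doxycycline arrays 1 and 4 above the vehicle range, array 5 below it and the others within it.

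Neuropilins, which also bind VEGF, did not pass. NRP1 stood at 9.28, 9.64, 9.24, 9.36 and 9.06 in vehicle and 9.90, 10.03, 10.07, 9.24 and 9.16 in doxycycline tumours, a difference of 0.37 (95% CI -0.08 to 0.81, limma, adjusted p = 0.298). Doxycycline arrays 1 to 3 were above every vehicle array, and arrays 4 and 5 were within the vehicle range. NRP2, a partner of SEMA3C and SEMA3F, differed by -0.10 (95% CI -1.05 to 0.86, limma, adjusted p = 0.926).

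**Figure D2:**
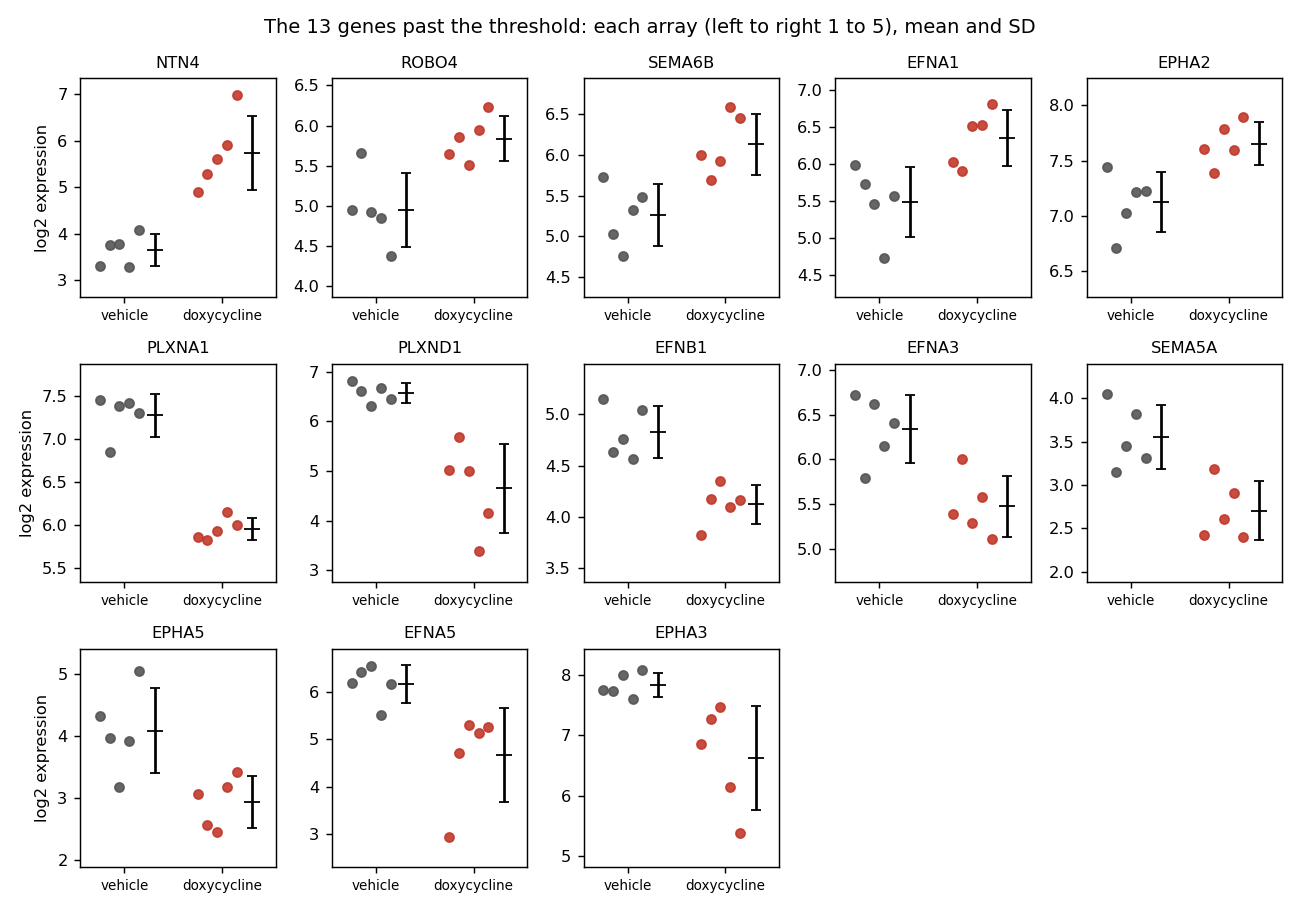
Log2 expression of the 13 genes past the threshold in each vehicle (grey) and doxycycline (red) array, arrays 1 to 5 from left to right, with the group mean and SD in black; axes do not start at 0. NTN4, PLXNA1, PLXND1, EFNB1, EFNA5 and EPHA3 show groups that do not overlap.

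A-type ephrins, ligands held in the membrane by a lipid anchor, changed in 3 of 5 genes, in both directions, where 11.0% of all genes were called. EFNA5 read 6.18, 6.42, 6.54, 5.52 and 6.16 in vehicle and 2.95, 4.71, 5.29, 5.14 and 5.26 in doxycycline tumours, without overlap. Doxycycline array 1 was far below the other 4. EFNA5 was lower, with a difference of -1.50 (95% CI -2.36 to -0.63, limma, adjusted p = 0.031), and passed in 17 of 23 settings (adjusted p = 0.0103 to 0.145). The call was lost when vehicle array 1, 2, 3 or 5, or doxycycline array 2, was left out (adjusted p up to 0.0754).

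EFNA3 stood at 6.73, 5.79, 6.62, 6.15 and 6.41 in vehicle and 5.39, 6.00, 5.28, 5.58 and 5.11 in doxycycline tumours. Vehicle array 2 and doxycycline array 2 overlapped, and otherwise the groups were apart. EFNA3 fell by 0.87 (95% CI -1.32 to -0.42, limma, adjusted p = 0.0186), passing in 18 of 23 settings (adjusted p = 0.0089 to 0.0691), with misses without vehicle array 1 or 3 (adjusted p up to 0.0512). The gene table lists a readthrough transcript that joins EFNA4 to EFNA3, and EFNA4 differed by -0.30 (adjusted p = 0.58).

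EFNA1, which binds EPHA2, is the next gene after EFNA3 in the table, and it was higher. It read 5.99, 5.73, 5.46, 4.73 and 5.57 in vehicle and 6.03, 5.91, 6.51, 6.53 and 6.81 in doxycycline tumours. Doxycycline array 2 lay just below the highest vehicle array, and the other 4 were above it. EFNA1 rose by 0.86 (95% CI 0.34 to 1.38, limma, adjusted p = 0.0363), but passed in only 12 of 23 settings (adjusted p = 0.0177 to 0.154). Single removals that lost the call were those of arrays 3, 4 and 5 of either group (adjusted p up to 0.078). EFNA2 differed by -0.06.

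Among the B-type ephrins, which cross the membrane and signal back into the cell that carries them, EFNB1 fell. It stood at 5.15, 4.63, 4.76, 4.57 and 5.05 in vehicle and 3.82, 4.18, 4.35, 4.09 and 4.16 in doxycycline tumours. Every doxycycline tumour was below every vehicle tumour. EFNB1 fell by 0.71 (95% CI -1.04 to -0.38, limma, adjusted p = 0.00965) and passed in all 23 settings (adjusted p = 0.00542 to 0.0367). EFNB2, the ligand of EPHB4 in vessels, and EFNB3 both differed by -0.22, with adjusted p = 0.421 and 0.527.

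EPHA receptors changed in 3 of 9 genes, where 11.0% of all genes were called. EPHA2, a receptor often abundant in melanoma, read 7.44, 6.71, 7.03, 7.21 and 7.22 in vehicle and 7.61, 7.39, 7.79, 7.59 and 7.90 in doxycycline tumours. Doxycycline array 2 fell within the vehicle range. EPHA2 rose by 0.53 (95% CI 0.20 to 0.87, limma, adjusted p = 0.0448), a 1.45-fold rise. This was the least stable call of the set, passing in 10 of 23 settings (adjusted p = 0.0181 to 0.127). It held without vehicle array 1 or doxycycline array 2 and missed without any other single array (adjusted p up to 0.1).

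EPHA3 and EPHA5, which bind A-type ephrins, fell. EPHA3 stood at 7.75, 7.73, 8.00, 7.60 and 8.09 in vehicle and 6.86, 7.28, 7.47, 6.15 and 5.38 in doxycycline tumours, without overlap. Doxycycline arrays 4 and 5 were the lowest. EPHA3 fell by 1.21 (95% CI -1.93 to -0.48, limma, adjusted p = 0.037), and by 0.63 without arrays 4 and 5 (adjusted p = 0.0467). It passed in 13 of 23 settings (adjusted p = 0.0106 to 0.173), and missed without any 1 vehicle array or doxycycline array 1 or 4 (adjusted p up to 0.0863).

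EPHA5 read 4.32, 3.96, 3.17, 3.92 and 5.05 in vehicle and 3.07, 2.56, 2.46, 3.18 and 3.42 in doxycycline tumours. Vehicle array 3 lay within the doxycycline range. EPHA5 fell by 1.15 (95% CI -1.81 to -0.49, limma, adjusted p = 0.03), passing in 15 of 22 settings (adjusted p = 0.00673 to 0.112). The call was lost on leaving out vehicle array 1, 2, 4 or 5, or doxycycline array 2 or 3 (adjusted p up to 0.0727), and its probe set is among the dimmest 30%.

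EPHA7 stood at 8.49, 8.10, 8.06, 8.45 and 8.31 in vehicle and 7.53, 7.31, 7.58, 7.11 and 4.56 in doxycycline tumours. All doxycycline tumours were below all vehicle tumours, with array 5 far below the rest. The difference of -1.46 missed the threshold (95% CI -2.50 to -0.42, limma, adjusted p = 0.0725). Without array 5 it was smaller, -0.90, and passed (adjusted p = 0.00282; 0.00282 to 0.247 over 23 settings). EPHA1, EPHA4, EPHA6, EPHA8 and EPHA10 differed by -0.35, 0.47, 0.13, 0.43 and -0.12 and did not pass.

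EPHB receptors gave 0 calls in 4 genes (limma; 1 with an unadjusted p under 0.05). Of all 17492 genes, 11.0% were called and 4307 had such a p, so 0 of 4 does not set the family apart. EPHB1 had the smallest p, at 4.10, 3.50, 3.68, 3.32 and 4.40 in vehicle and 4.09, 4.73, 3.76, 4.41 and 5.66 in doxycycline tumours, a difference of 0.73 (95% CI 0.03 to 1.43, limma, adjusted p = 0.185). The groups overlapped, and doxycycline array 5 was the highest of all. EPHB4, the venous partner of EFNB2, read 5.66 ± 0.27 to 5.66 ± 0.26 (SD, n = 5 each), with an interval of the difference of -0.36 to 0.36. EPHB3 and EPHB6 differed by -0.11 and 0.31.

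**Figure D3:**
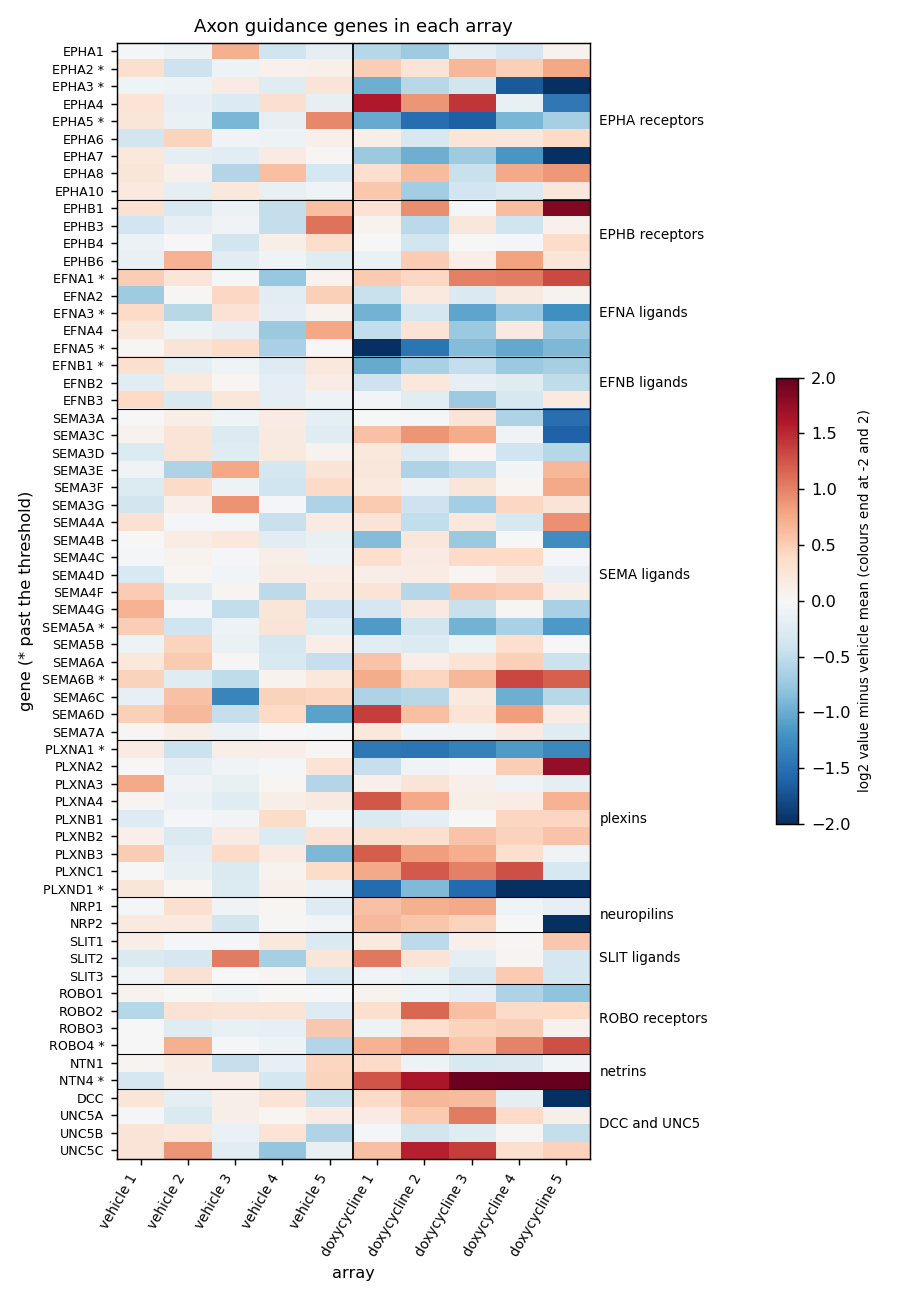
Log2 value of each of the 64 genes (rows, by family) in each of the 10 arrays (columns), minus the gene's vehicle mean, with colours ending at -2 and 2. NTN4 is above 0 and PLXNA1 and PLXND1 are below 0 in all 5 doxycycline columns, and array 5 differs from arrays 1 to 3 in EPHA4, NRP2, SEMA3C and DCC.

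NTN4, a secreted netrin of basement membranes that binds laminin, had the largest rise of the set. It stood at 3.31, 3.76, 3.78, 3.29 and 4.09 in vehicle and 4.90, 5.28, 5.60, 5.90 and 6.99 in doxycycline tumours. Every doxycycline tumour was above every vehicle tumour, and array 5 was the highest. NTN4 rose by 2.09 (95% CI 1.38 to 2.80, limma, adjusted p = 0.00177), a 4.26-fold rise. Its mean went from 3.65 ± 0.34 to 5.74 ± 0.79 (SD, n = 5 each). It passed in all 23 settings (adjusted p = 0.000275 to 0.0388).

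NTN1, the netrin that binds DCC, read 4.83 ± 0.33 to 4.76 ± 0.28 (SD, n = 5 each) and did not pass (adjusted p = 0.867). The netrin receptors gave 0 calls in 4 genes (limma; 2 with an unadjusted p under 0.05). Of all 17492 genes, 11.0% were called and 4307 had such a p, so 0 of 4 does not set these receptors apart. UNC5C had the smallest p, at 2.07, 2.69, 1.59, 1.04 and 1.67 in vehicle and 2.41, 3.36, 3.20, 2.14 and 2.28 in doxycycline tumours, a difference of 0.87 (95% CI 0.18 to 1.55, limma, adjusted p = 0.106). Its groups overlapped through vehicle array 2, without which it passed (adjusted p = 0.0413; 0.0297 to 0.22 over 22 settings). The UNC5C probe set is among the dimmest 30% of all genes, where values lie near the array's background. UNC5A differed by 0.45, UNC5B by -0.21 and DCC by -0.13. The DCC difference turned to 0.38 without doxycycline array 5 (adjusted p = 0.295) and 0.56 without arrays 4 and 5 (adjusted p = 0.0834).

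ROBO4, the ROBO receptor of endothelial cells, was higher. It read 4.95, 5.66, 4.92, 4.85 and 4.37 in vehicle and 5.64, 5.85, 5.51, 5.95 and 6.24 in doxycycline tumours. Only vehicle array 2 reached into the doxycycline range. ROBO4 rose by 0.89 (95% CI 0.42 to 1.36, limma, adjusted p = 0.0208), passing in 21 of 23 settings (adjusted p = 0.00484 to 0.0956). Of 15 other endothelial markers 0 passed (limma; 1 with an unadjusted p under 0.05), where 11.0% of all genes were called. Their mean level ranged from 3.89 to 4.14 in vehicle and 3.94 to 4.29 in doxycycline arrays. Of these 15 markers, 7 were among the dimmest 30% of all genes, and the vessels were of mouse origin while the probes were human. Whether vessel content changed was not tested. In such bulk tissue, fewer cells of a type and less RNA per cell cannot be told apart.

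ROBO2 stood at 2.47, 3.34, 3.31, 3.32 and 2.79 in vehicle and 3.37, 4.20, 3.65, 3.42 and 3.45 in doxycycline tumours. The groups did not overlap, but the difference of 0.57 did not pass (95% CI 0.11 to 1.03, limma, adjusted p = 0.112). The ROBO2 probe set is among the dimmest 30% of all genes. ROBO1 and ROBO3 differed by -0.32 and 0.25. Their SLIT ligands gave 0 calls in 3 genes (limma; 0 with an unadjusted p under 0.05), all among the dimmest 30%. With 11.0% of all 17492 genes called and 4307 at such a p, 0 of 3 does not set the SLIT genes apart. SLIT2, with the smallest p of the 3 SLIT genes, read 3.48, 3.44, 4.81, 3.11 and 4.01 in vehicle and 4.83, 4.04, 3.58, 3.83 and 3.43 in doxycycline tumours. Its difference of 0.17 was smaller than the spread within either group. SLIT1 differed by 0.07 and SLIT3 by -0.07.

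In 9 of the 64 genes, 14.1%, the doxycycline arrays all lay on one side of the vehicle arrays, against 11.8% of all genes. These were NTN4, PLXNB2 and ROBO2 above, and PLXNA1, PLXND1, EFNB1, EFNA5, EPHA3 and EPHA7 below. A single doxycycline array stood far from the other 4 by Dixon's criterion in 3 of 64 genes (6.44% of all genes), and a single vehicle array in 3 of 64 (6.2%). Doxycycline array 5 was that array for EPHA7 and NRP2, 3.12% of the set against 2.29% of all genes.

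Spread within the doxycycline group was wide for part of the set. In 11 of 64 genes, 17.2%, the SD of the doxycycline arrays was over 3 times that of the vehicle arrays, against 7.6% of all genes. The reverse was seen in 0 of 64 and 2.0% of all genes. The ratio of 3 was set after the data were seen. Arrays 4 and 5 were the lowest pair of doxycycline arrays in 9 of the 11 and the highest pair in 1, PLXNA2. Over the 1330 genes of such spread they were the lowest pair in 29.2% and the highest in 15.0%.

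EPHA4, a receptor of both ephrin types, stood at 5.08, 4.65, 4.54, 5.13 and 4.65 in vehicle and 6.41, 5.70, 6.24, 4.67 and 3.38 in doxycycline tumours. Doxycycline arrays 1 to 3 were above every vehicle array, array 4 was within their range and array 5 was below them. NRP2 showed the same order, at 7.70, 7.70, 7.15, 7.54 and 7.45 in vehicle and 8.15, 8.06, 7.96, 7.52 and 5.37 in doxycycline tumours. SEMA3C did too, at 8.41, 8.59, 8.05, 8.51 and 8.10 and 8.92, 9.21, 9.07, 8.26 and 6.71. DCC stood at 5.98, 5.55, 5.85, 6.02 and 5.29 in vehicle and 6.13, 6.41, 6.37, 5.56 and 3.56 in doxycycline tumours, with array 5 again the lowest.

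SEMA3A and ROBO1 differed in that no doxycycline array was far above the vehicle range. SEMA3A read 7.81, 7.77, 8.07, 7.20 and 6.29 in doxycycline tumours, against 7.80, 7.93, 7.73, 7.97 and 7.61 in vehicle tumours. ROBO1 read 7.80, 7.65, 7.55, 7.11 and 6.93, against 7.67 to 7.80. Arrays 4 and 5 were below the vehicle range for both genes, as were arrays 2 and 3 for ROBO1. PLXNA2 ran the other way, at 4.73, 5.12, 5.15, 5.68 and 6.94 against 5.01 to 5.46, highest in array 5. SEMA4B was low in doxycycline arrays 1, 3 and 5, at 6.61, 7.70, 6.74, 7.47 and 6.24 against 7.48, 7.63, 7.68, 7.26 and 7.34 in vehicle tumours.

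Without doxycycline arrays 4 and 5, the differences of EPHA4, SEMA3C, NRP1, NRP2 and PLXNC1 were 1.31, 0.74, 0.69, 0.55 and 1.00. All 5 then passed (adjusted p = 0.00385, 0.0182, 0.0155, 0.0473 and 0.00644), where over all arrays none did (adjusted p = 0.609, 0.913, 0.298, 0.926 and 0.086). Arrays 4 and 5 were removed because they were seen to be low in genes such as these, so these passes follow in part from that choice and are a description. NRP2 had been below 0 over all arrays. Over the 23 settings, the adjusted p ranged up to 0.863, 0.989, 0.486, 0.972 and 0.225. EPHA7 was at -0.81 without these arrays (adjusted p = 0.00766), and EFNA1, EPHA2, ROBO4, SEMA6B, EFNA3 and SEMA5A no longer passed with the 3 arrays left.

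**Figure D4:**
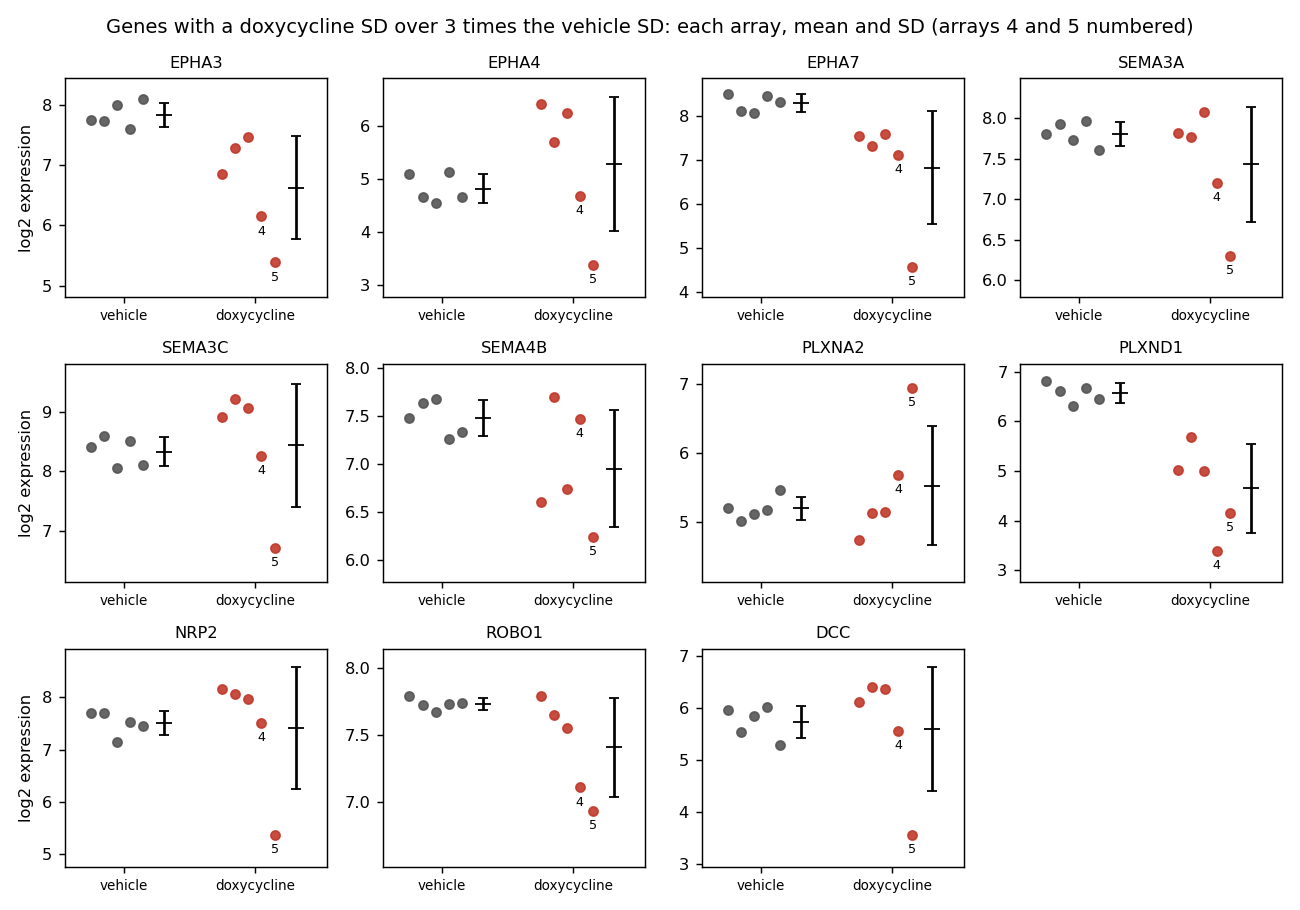
Log2 expression of the 11 genes whose doxycycline SD was over 3 times the vehicle SD, in each vehicle (grey) and doxycycline (red) array, arrays 1 to 5 from left to right, with group mean and SD in black and doxycycline arrays 4 and 5 numbered; axes do not start at 0. Array 5 is the lowest doxycycline array in 9 of the 11 genes and the highest in PLXNA2.

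Markers of other cells were compared beside these genes. A stroma score was taken as the mean of 43 endothelial, macrophage and fibroblast markers, each centred on its mean. CSPG4, also a lineage marker here, was among them. The score was -0.172 to 0.0922 in vehicle arrays and -0.0798 to 0.204 in doxycycline arrays, where arrays 5 and 4 were highest at 0.204 and 0.111. Macrophage and monocyte markers averaged 4.14 to 4.39 in vehicle and 4.37 to 4.76 in doxycycline arrays, with CD14 and LYZ higher and 13 of 15 not called. Fibroblast and pericyte markers averaged 5.27 to 5.83 and 5.16 to 5.47, with 0 of 13 called (limma; 5 with an unadjusted p under 0.05). Such a p was seen in 4307 of all 17492 genes. Of the 13 fibroblast and pericyte markers, 9 differed downwards and 4 upwards, whatever their p. Schwann cell and nerve markers averaged 5.55 to 5.70 in vehicle and 5.04 to 5.77 in doxycycline arrays, lowest in array 5, and 1 of 9, NEFL, was called, lower. Keratinocyte markers averaged 3.12 to 3.36 and 3.17 to 3.50, with 1 of 9, DSP, called, higher. Called shares were 13.3%, 11.1% and 11.1% of the macrophage, nerve and keratinocyte markers, close to the 11.0% of all genes. The 13 lineage markers averaged 4.73 to 5.00 in vehicle and 4.64 to 5.05 in doxycycline arrays, again lowest in array 5. In that array S100B was at 5.06 and SOX10 at 6.49, against 7.21 to 7.48 and 7.45 to 7.85 in the other doxycycline arrays, values named after they were seen. With the stroma score in the fit, 11 genes of the set passed, without EFNA1, EPHA2 and EPHA3 and with PLXNB3. The part of these cells in the results was otherwise not tested.

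Other genes of the pathways were taken from lists of co-receptors and signalling proteins, with 129 measured. Of these, 13 rose and 10 fell, 17.8% against 11.0% of all genes, with a median change of 0.11. The lists were chosen with earlier results of these data known, so these shares, and the directions within each list below, are a description only. Among 30 co-receptors and related ligands 4 rose and 2 fell. The netrin relative NTNG1 rose by 1.17 (adjusted p = 0.00154), PLXDC1 by 0.75, NTN3 by 0.54 and the neurite growth gene SLITRK1 by 0.54. BOC and CDON, related surface receptors that also serve hedgehog signalling, fell by 1.95 (adjusted p = 0.000116) and fell by 1.38 (adjusted p = 0.011).

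Among 26 Eph and ephrin signalling genes 4 fell and 1 rose, 19.2% called against 11.0% of all genes. The scaffold gene GIT1 fell by 0.96 (adjusted p = 0.00168), the exchange factor VAV2 fell by 0.73, and the adaptor genes SHB and NCK1 fell by 0.58 and by 0.57. RGS3, which binds B-type ephrins, rose by 0.61 (adjusted p = 0.00283). Of 29 semaphorin, plexin and neuropilin signalling genes 6 rose and 1 fell, 24.1% called against 11.0%. The small GTPase gene RRAS, a target of plexin activity, rose by 0.98 (adjusted p = 0.00385) and MRAS by 0.72. The actin-oxidising enzyme MICAL2 rose by 0.95, the collapsin response gene DPYSL3 by 0.89 and the kinase CDK5 by 0.63. FARP2, a Rac exchange factor that binds plexins, fell by 0.73 (adjusted p = 0.0145).

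Of 23 SLIT, ROBO, netrin and DCC signalling genes 4 fell and 0 rose, 17.4% called against 11.0% of all genes. The actin-binding gene ABLIM1 fell by 1.00 (adjusted p = 0.00162), the focal adhesion kinase PTK2 fell by 0.92 and the ubiquitin ligase SIAH2, which degrades DCC, fell by 0.90. The other was NCK1, which is on both lists. The test of unequal spread called 8 of the 129 higher and 5 lower in place of 13 and 10, and 6 were lower without doxycycline arrays 4 and 5.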

How the data were processed

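Tumour RNA of 5 vehicle and 5 doxycycline arrays was measured. The authors deposited log2 expression values, and the submitters' processing notes name RMA (background correction, quantile scaling and probe summary). Its version, the array model and the build were not given in the sources used here. RMA makes array distributions alike, so a shift shared by most genes would not be seen. Of 18569 probe sets 17511 carried 1 gene symbol, 0 several and 1058 none listed. All 17511 gene identifiers matched the gene table. For 17 genes with several probe sets the brightest was used.

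Groups came from the titles, which name no batch. All genes were fitted with limma 3.58.1 in R 4.3.3 (linear model with moderated variances, group only, two-sided tests, 95% intervals), and the procedure was tested on simulated data. Members and lists were chosen with earlier results of these data known. Every gene of the set may be named. Values per array are given for genes past the threshold, for the smallest p of a family without one, and for others chosen after their values were seen, as were the promoters shown. Genes of other lists are named where they passed, except for 1 list and 1 gene not reported here. The 23 alternatives were trended and robust moderation, array weights, the replicate number as a block, median centring, repeated quantile normalization, a filter dropping the dimmest 30% of genes, averaged probe sets, all probe sets, the stroma score, Welch's test, a minimum of 1.5-fold, each array left out, and doxycycline arrays 4 and 5 left out, the last chosen after seeing the data. The number of arrays limits the precision.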

Additional observations from a re-analysis of the deposited data

Results flagged for a closer look

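In 6 of 128 combinations of gene and group, 1 array lay far from the other 4 by Dixon's gap criterion at 95%. Chance gives about 1 in 20. Over all genes 6.44% of doxycycline groups and 6.2% of vehicle groups did so, against 4.69% of each for the axon guidance genes. EPHA7 in doxycycline array 5 was at 4.56, where the others were at 7.11 to 7.58. NRP2 in doxycycline array 5 was at 5.37, where the others were at 7.52 to 8.15. EFNA5 in doxycycline array 1 was at 2.95, where the others were at 4.71 to 5.29. Among vehicle arrays, EPHB3 in array 5 was at 5.39, above 3.83 to 4.23. EPHB6 in array 2 was at 3.91, above 2.97 to 3.16. PLXNA1 in array 2 was at 6.85, below 7.30 to 7.45, and still above every doxycycline array.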

How the results depend on the processing

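No called gene changed sign under any of the 23 alternatives, and NTN4, PLXNA1 and EFNB1 passed in all of them. With each single array left out, 5 of the 13 called genes passed every time, and 5 uncalled genes passed at least once. The number of axon guidance genes called higher was then 2 to 5 and lower 4 to 9, that of all genes 595 to 908 and 768 to 1012, and that of signalling partners 10 to 15 and 8 to 12. Welch's test called 1 axon guidance gene higher and 2 lower, 578 of all genes higher in place of 880, and 8 signalling partners higher and 5 lower. Without doxycycline arrays 4 and 5, 6 signalling partners were lower. The cause of these differences was not tested, beyond the fewer arrays. Removing the dimmest 30% of genes dropped 21 axon guidance genes, SEMA5A and EPHA5 among them, and left 6 called in each direction. With the replicate number as a block, 6 were higher and 6 lower, and 755 and 886 of all genes. Same-numbered arrays deviated together with correlations of -0.0635 to 0.191, and 2 of 5 vehicle arrays correlated best with their own number. The titles name no pairing, and with 5 arrays per group these correlations cannot decide whether the numbers pair the tumours.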
